A study of Mus musculus with 6 samples.

Results

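Sites of estrogen receptor alpha (ERα) around Greb1, Pgr and Igf1 were followed across 6 peak lists from chromatin immunoprecipitation and sequencing (ChIP-seq) of mouse uterus. They were chosen by position alone: a peak belonged to a gene when its midpoint lay in a fixed window of the mm9 genome that held the gene and about 100 kb on each side. The windows were chromosome 12 from 16570000 to 16910000 for Greb1 (340 kb), chromosome 9 from 8800000 to 9070000 for Pgr (270 kb) and chromosome 10 from 87220000 to 87500000 for Igf1 (280 kb). They held 164 of the 154923 peaks deposited. After peaks of the 6 lists that overlapped by at least 1 bp were merged into sites, they held 63 of 65146 sites: 31 at Greb1, 15 at Pgr and 17 at Igf1. All positions are in mm9 and count from 1.

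The uteri came from ovariectomized C57BL/6J females aged 12 weeks, either wild type or littermates that carried an ERα knock-in with a mutated activation function 2 (AF-2). AF-2 is the surface of the ligand-binding domain that takes up coactivators. Each genotype received an intraperitoneal injection of ICI (fulvestrant, ICI182780) at 2 mg/kg, of tamoxifen at 2 mg/kg, or of 50 µl DMSO as vehicle, and uteri were taken after 1 h. All mice had been ovariectomized, and 6 uteri were pooled into 1 library for each combination. E1h, a code in every sample title, has no explanation in the labels, and from them an estrogen given to every group cannot be told apart from a time stamp. No group has a replicate, so every comparison is between single libraries, with intervals that cover counting error only. The lists hold positions and no peak heights, so a site missing from a list may still have been bound below the authors' threshold. In pooled whole uterus, a site bound in more cells and a site bound more often per cell cannot be told apart.

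ERα is a nuclear receptor that binds estrogen response elements, palindromes of GGTCA arms, often in enhancers far from the genes they serve. Greb1 is a coactivator of ERα and a classical estrogen-induced gene. Pgr encodes the progesterone receptor, which is induced by estrogen and counters its growth effect on the uterine epithelium. Igf1 encodes insulin-like growth factor 1, which uterine stroma releases in response to estrogen and which drives epithelial growth. ICI is a steroidal antagonist that also lowers receptor levels, and tamoxifen is a nonsteroidal compound that acts as an agonist in the rodent uterus.

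The promoters of the 3 genes are shown because each window is built around its gene. They are RefSeq sequences of GRCm38.p6, 250 bases before to 50 after an annotated start, written 5′ to 3′ along the gene, with each GGTCA arm (or its reverse complement TGACC) in capitals. Greb1 has 2 annotated starts in the table, both on the minus strand, and Pgr and Igf1 have 1 each on the plus strand.
Greb1 start 1: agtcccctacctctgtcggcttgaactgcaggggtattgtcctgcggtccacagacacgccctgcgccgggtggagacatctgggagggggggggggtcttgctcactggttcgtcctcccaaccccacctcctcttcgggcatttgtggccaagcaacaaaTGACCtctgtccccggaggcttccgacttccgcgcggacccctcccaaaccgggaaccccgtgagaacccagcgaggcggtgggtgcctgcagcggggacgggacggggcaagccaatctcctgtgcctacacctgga
Greb1 start 2: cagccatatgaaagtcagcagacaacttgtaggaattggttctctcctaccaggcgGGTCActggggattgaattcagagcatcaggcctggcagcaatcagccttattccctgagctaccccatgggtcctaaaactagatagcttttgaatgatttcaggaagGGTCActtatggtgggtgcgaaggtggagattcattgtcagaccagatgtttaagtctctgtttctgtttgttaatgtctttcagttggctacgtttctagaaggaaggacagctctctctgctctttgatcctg
Pgr: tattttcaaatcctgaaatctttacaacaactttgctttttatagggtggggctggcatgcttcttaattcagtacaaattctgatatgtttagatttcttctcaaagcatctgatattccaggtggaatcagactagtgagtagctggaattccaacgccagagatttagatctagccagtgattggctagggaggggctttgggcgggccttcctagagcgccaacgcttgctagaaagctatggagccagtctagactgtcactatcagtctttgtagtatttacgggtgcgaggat
Igf1: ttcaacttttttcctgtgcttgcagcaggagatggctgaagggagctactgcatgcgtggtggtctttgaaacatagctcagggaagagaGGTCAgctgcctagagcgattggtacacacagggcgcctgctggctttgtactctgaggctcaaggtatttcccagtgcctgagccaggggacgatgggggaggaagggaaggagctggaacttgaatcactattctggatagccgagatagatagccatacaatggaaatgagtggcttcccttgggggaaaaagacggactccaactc
The first Greb1 promoter and the Igf1 promoter each held 1 arm, the second Greb1 promoter held 2, and the Pgr promoter held 0. An arm on either strand occurred in 40.5% of the 32851 promoters of the table. The full palindrome, GGTCA and TGACC with 3 bases between them, was in none of the 4 and in 23 of all promoters (0.0700%). These letters say nothing about binding elsewhere in the windows. The peaks are in another build than the promoters and coordinates were not converted, so no site is described as promoter, exonic, intronic or intergenic. In the RefSeq gene order Greb1 lies between Ntsr2 and E2f6 and Pgr between Trpc6 and Arhgap42, counting protein-coding genes, so a site in a flank may lie closer to a neighbour than to the gene that names its window.

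ERα peaks were denser in the 3 windows together than over the genome in every list. Wild-type tamoxifen had 48 peaks there (95% Poisson interval 35.4 to 63.6), or 5.39 per 100 kb against 1.42 over chromosomes 1 to 19 and X, which is 3.81 times as dense. Wild-type ICI had 25 peaks, or 2.81 per 100 kb, 2.80 times the density of its whole list. In the mutant, ICI gave 41 peaks and tamoxifen 34, at 2.65 and 2.76 times the density of their lists. Vehicle gave 10 peaks in the wild type, 7.98 times its list density, and 6 in the mutant, 3.54 times. The wild-type tamoxifen library thus held the most peaks around these genes, although the longest list was mutant ICI, with 45837 peaks against 37327.

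**Figure D1:**
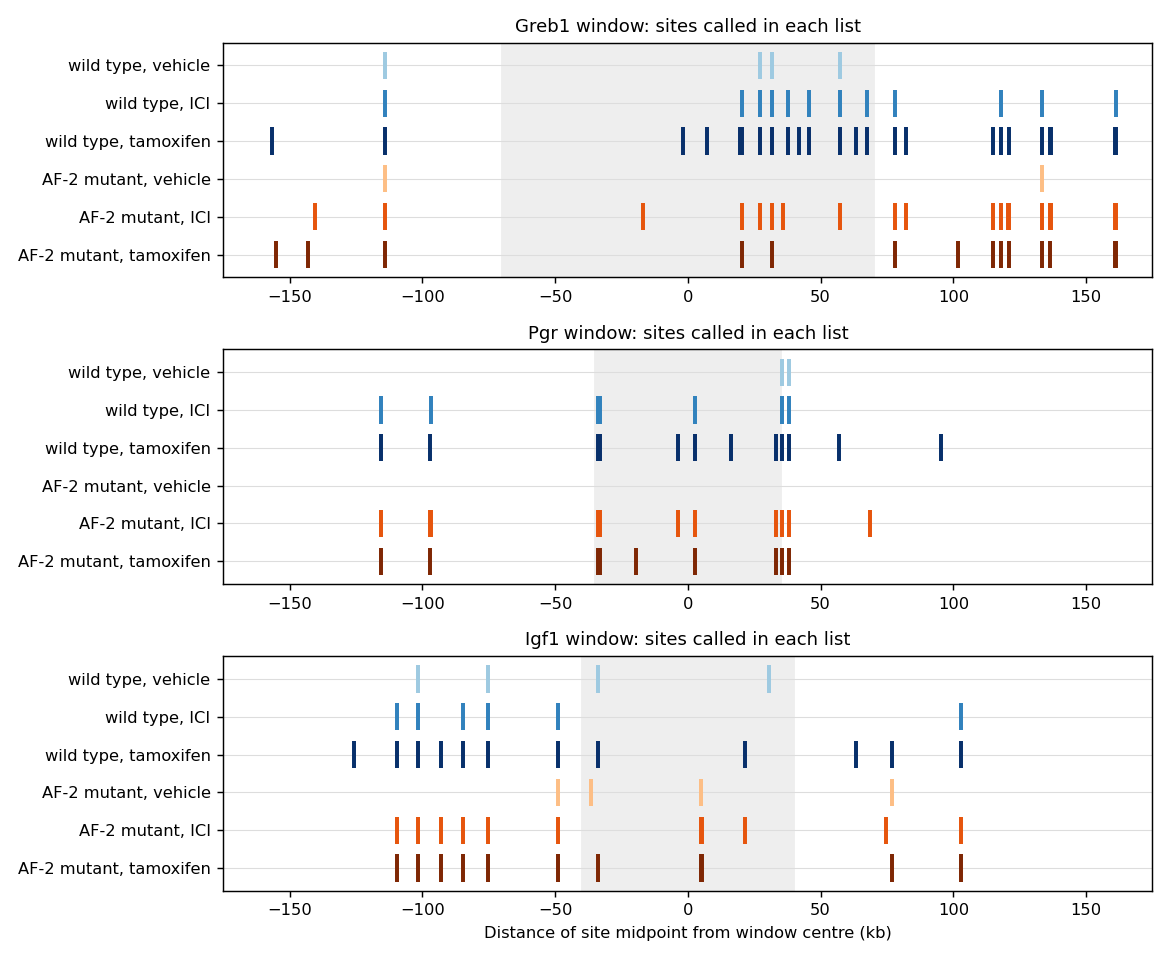
ERα sites in the windows of Greb1, Pgr and Igf1. Each tick is a site called in the list named on the left, placed by the distance of its midpoint from the window centre in kb, and grey marks the interval left after 100 kb is taken from each side. In the grey interval of Greb1 wild-type tamoxifen has 12 ticks and mutant tamoxifen 2.

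The Greb1 window had the most wild-type ligand peaks per 100 kb of the 3, with intervals that overlap those of the other windows. In the mutant lists the order of the windows turned when the window edges were moved by 50 kb. Wild-type ICI had 12 peaks there, wild-type tamoxifen 24, mutant ICI 19, mutant tamoxifen 14, wild-type vehicle 4 and mutant vehicle 2. The genome was divided into 7741 windows of the same 340 kb length as a yardstick. Fewer peaks than at Greb1 were found in 98.98% of them by the wild-type tamoxifen list, in 95.3% by wild-type ICI, in 93.9% by mutant ICI and in 91.4% by mutant tamoxifen. Pgr had 7 wild-type ICI peaks, 12 wild-type tamoxifen, 11 mutant ICI, 9 mutant tamoxifen, 2 wild-type vehicle and 0 mutant vehicle peaks. The share of 270 kb windows with fewer ligand peaks ran from 85.3% for mutant ICI to 92.6% for wild-type tamoxifen. Igf1 had 6 wild-type ICI peaks, 12 wild-type tamoxifen peaks, 11 peaks in each mutant ligand list and 4 in each vehicle list. Here the share of 280 kb windows with fewer ligand peaks ran from 81.5% for wild-type ICI to 92.2% for wild-type tamoxifen. Placed this way, the ligand lists were well above the middle of the genome at all 3 genes but not at its extreme, wild-type tamoxifen at Greb1 coming closest.

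**Figure D2:**
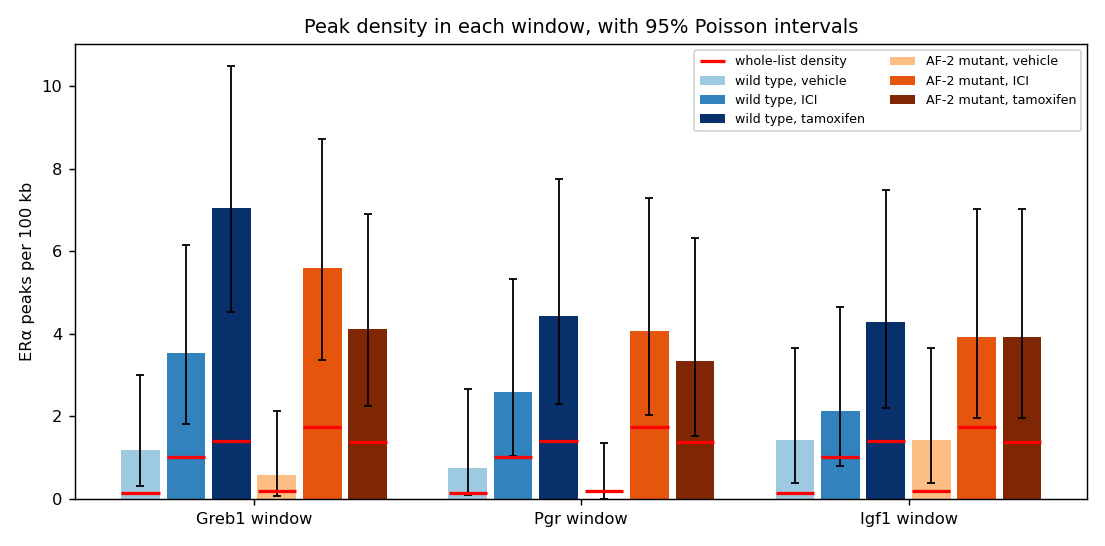
Peaks per 100 kb in each window by list, as bars with 95% Poisson intervals, and the density of the whole list over chromosomes 1 to 19 and X as red lines. Wild-type tamoxifen at Greb1, with 24 peaks, is the tallest bar, and mutant vehicle at Pgr is at 0.

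At Greb1 the tamoxifen libraries of the genotypes parted within the inner interval of the window. The 140 kb left after 100 kb was taken from each side of the window held 14 sites. Wild-type tamoxifen called 12 of these (85.7%, exact 95% binomial interval 57.2 to 98.2) and mutant tamoxifen 2 (14.3%, 1.78 to 42.8). Sites were merged from all lists, so a site called by wild-type tamoxifen alone raises its share and lowers that of the mutant. The intervals do not allow for this, and 8 of the 14 sites were called by wild-type ligand lists alone. Over all sites of the series, wild-type tamoxifen called 57.3% and mutant tamoxifen 56.1%. Every inner site of mutant tamoxifen was also a wild-type tamoxifen site, and 10 were called with tamoxifen in the wild type and not in the mutant. In the flanks of the same window the lists were level, with 12 of 17 sites each, 3 of them in wild-type tamoxifen alone of this pair and 3 in mutant tamoxifen alone. Sites in wild-type but not mutant tamoxifen made up 20.5% of all sites, and those in mutant but not wild-type tamoxifen 19.3%.

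A gap of this size between the tamoxifen lists was rare among all windows of the same length. Of 18817 windows of 140 kb, 4 (0.0213%) had at least 10 more peaks in wild-type than in mutant tamoxifen, and 6 had at least 10 more in the mutant. This yardstick was chosen after the gap had been seen, and it rests on 1 library of each genotype. Over the genome, wild-type tamoxifen averaged 1.42 peaks per 100 kb, so most 140 kb windows held too few peaks to differ by 10. The shares given here are of all windows, sparse ones included, and not of windows as dense as this interval. Over the whole Greb1 window the difference was also 10 peaks, which 0.388% of the 340 kb windows reached. Wild-type tamoxifen also exceeded wild-type ICI at Greb1, by 12 peaks over the window, a difference reached by 0.607% of the 340 kb windows. In the inner interval it did so by 5, reached by 2.04% of the 140 kb windows. These differences do not allow for list length, 37327 peaks with tamoxifen and 26482 with ICI. As a ratio, wild-type ICI had 0.5 times the tamoxifen peaks of the Greb1 window (0.228 to 1.04). That interval held the ratio of the whole lists, 0.709.

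With ICI the genotypes called similar numbers of the inner Greb1 sites. Wild-type ICI called 7 of the 14 inner sites (50.0%, 23.04 to 77.0) and mutant ICI 6 (42.9%, 17.7 to 71.1), against 40.7% and 70.3% of all sites. They had 4 in common. Beside the shares of all sites, wild-type ICI stood higher and mutant ICI lower, the same directions as with tamoxifen, though both intervals held those shares. In the flanks of the same window mutant ICI called 76.5%. In the higher-coordinate flank, mutant ICI called 11 of 12 sites and wild-type ICI 4, and all 4 were among the 11. Of the 7 inner sites of wild-type ICI, mutant ICI called 4 and mutant tamoxifen 2. All 7 were also wild-type tamoxifen sites. Mutant tamoxifen had only 2 inner sites and could call no more, so these sites are no separate check of the tamoxifen gap. Of all wild-type ICI sites, mutant ICI called 73.1% and mutant tamoxifen 66.8%. Whether the difference between the ligands is more than the variation between libraries was not tested.

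**Figure D3:**
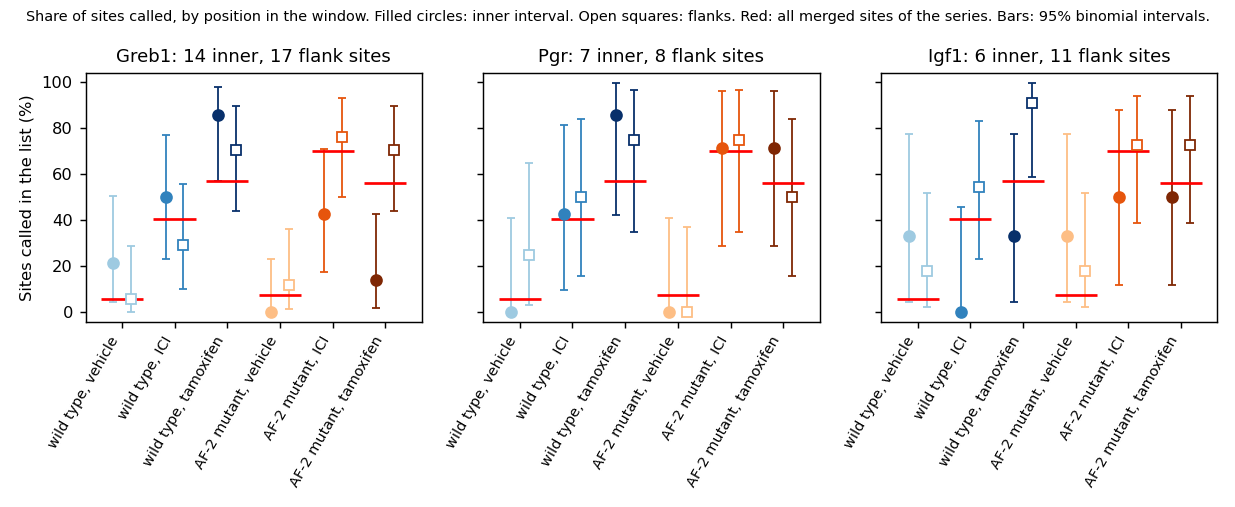
Percent of sites called in each list, for the inner interval (filled circles) and the flanks (open squares) of each window, with exact 95% binomial intervals and, in red, the percent of all merged sites. For mutant tamoxifen at Greb1 the inner share is 14.3% and the flank share 70.6%, while for wild-type ICI at Igf1 the inner share is 0.

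Single Greb1 sites show the classes. One site, at 16625747 to 16626011 in the lower-coordinate flank, was called in all 6 lists. It was the only one of the 63 to be so (1.59%, 0.0402 to 8.53), against 0.705% of all sites. The next site above it was 97.4 kb away, the longest gap in the 3 windows. The site at 16771594 to 16771817 was called in every list except mutant vehicle, and the site at 16873306 to 16873761 in every list except wild-type vehicle. A pair of inner sites, at 16767230 to 16767437 and at 16797288 to 16797520, was called in all 3 wild-type lists and, in the mutant, with ICI but with neither tamoxifen nor vehicle. Sites missing from mutant tamoxifen alone among the ligand lists make up 2.46% of all sites. These 2 were the only ones in the windows (3.17% of the 63, 0.387 to 11.0). Greb1 also held 3 sites that both wild-type ligand lists and neither mutant ligand list called, at 16777790 to 16778002, 16785460 to 16785715 and 16807311 to 16807520. These were the only sites of that class in the 3 windows. The class holds 3.03% of all sites and 4.76% of the 63 (0.993 to 13.3). Each of these class intervals held the value for all sites. The 3 sites of the last class were all in the inner interval. There, 8 of the 14 sites were called only by wild-type ligand lists, 2 only by mutant ligand lists and 4 by both genotypes, classes that hold 19.2%, 29.0% and 49.3% of all sites. In the higher-coordinate flank the same counts were 0, 2 and 10 of 12.

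Pgr, with the fewest sites, had its ligand-common and vehicle sites mainly at the edges of the inner interval. Of its 15 sites, 6 were called in all 4 ligand lists (40.0%, 16.3 to 67.7), against 7 of 31 at Greb1 (22.6%, 9.59 to 41.1), 6 of 17 at Igf1 (35.3%, 14.2 to 61.7) and 23.2% of all sites. These intervals overlap each other and the value for all sites. A close pair at the lower edge of the inner interval, at 8900960 to 8901292 and 8901941 to 8902155, was found with both ligands in both genotypes but not with vehicle, as was the site at 8937734 to 8937947 near the middle. The largest cluster, chained from sites with midpoints within 5 kb, lay at the other edge and held 3 sites. Its first, at 8968179 to 8968387, was in every ligand list except wild-type ICI. The others, at 8970396 to 8970606 and 8972835 to 8973061, were in all 4 ligand lists and also in wild-type vehicle. They were the only vehicle sites of the window. Mutant and wild-type tamoxifen called 5 and 6 of the 7 inner Pgr sites.

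At Igf1 the sites called in all 4 ligand lists lay in the flanks. In the lower-coordinate flank, 5 of 7 sites were called in all 4 ligand lists: those at 87250328 to 87250544, 87258433 to 87258641, 87275066 to 87275313, 87284736 to 87284947 and 87311022 to 87311421. The remaining site with all 4 ligand lists, at 87462801 to 87463017, was in the other flank. That flank had 1 of 4 in this class. None of the 6 sites in the inner 80 kb was called in all 4 ligand lists, against 23.2% of all sites. The exact interval for 0 of 6, 0 to 45.9%, held that value. Wild-type ICI called 0 of them (exact interval 0 to 45.9%) and 6 of 11 in the flanks (54.5%, 23.4 to 83.3). Wild-type tamoxifen called 2 of the inner 6 and 10 of the 11 flank sites, and each mutant ligand list called 3 and 8. Of all sites, wild-type ICI called 40.7%, wild-type tamoxifen 57.3%, mutant ICI 70.3% and mutant tamoxifen 56.1%. Wild-type tamoxifen in the flanks was the only one of these 8 shares whose interval (58.7 to 99.8) left out the value for all sites. With 10 kb less taken from each side, the site at 87311022, called in all 4 ligand lists, fell inside. Wild-type ICI then called 1 of 7 inner sites (14.3%). With 10 kb more, mutant ICI called all of the inner sites that were left in place of 50.0%. Wild-type tamoxifen exceeded wild-type ICI by 2 inner peaks, a difference that 10.2% of 80 kb windows reached, so that it was not unusual. The inner interval also held the only sites of the 3 windows with both ligands in the mutant and neither in the wild type, a close pair at 87364776 to 87364998 and 87365158 to 87365368. That class holds 10.6% of all sites and 2 of the 63 here (3.17%, 0.387 to 11.0).

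Vehicle sites made up a larger share of the 63 sites than of the series, mainly at Igf1. Nearly all were in the vehicle list of only 1 genotype. Of the 63 sites, 15 (23.8%, 14.0 to 36.2) were called in a vehicle list, against 11.7% of all sites. Wild-type vehicle called 10 (15.9%, 7.88 to 27.3), against 5.70% of all sites, and mutant vehicle 6 (9.52%, 3.58 to 19.6), against 7.72%. Igf1 contributed most, with 8 of its 17 sites (47.1%, 23.0 to 72.2). Greb1 had 5 of 31 (16.1%, 5.45 to 33.7) and Pgr 2 of 15 (13.3%, 1.66 to 40.5), intervals that held the 11.7%. The 4 wild-type vehicle peaks of Igf1 exceeded 99.4% and its 4 mutant vehicle peaks 98.2% of the 280 kb windows. Of these sites 0 were common to the genotypes. Igf1 also had the only 2 sites of the windows seen with vehicle and no ligand. That class holds 2.45% of all sites and 3.17% of the 63 (0.387 to 11.0). Wild-type vehicle called the Igf1 sites at 87258433 and 87284736, both with all 4 ligands, at 87326078 to 87326318, with both tamoxifen lists, and at 87390385 to 87390584, in no other list. Mutant vehicle called those at 87311022, with all 4 ligands, at 87364776, with both mutant ligand lists, at 87436718 to 87436951, with both tamoxifen lists, and at 87323565 to 87323764, in no other list. Across the 3 windows the genotypes shared 1 vehicle site, the Greb1 site found in all 6 lists (1.59% of the 63, 0.0402 to 8.53). Of all sites 1.68% are shared in this way. In the whole series too, most vehicle sites were in 1 vehicle list, with 1096 of 7643 in both. The shared Greb1 site is 1 of 10 wild-type vehicle peaks (interval 0.253% to 44.5%), against 29.4% in the whole lists, a value inside the interval.

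Vehicle sites were mostly also ligand sites. In the wild type 8 of the 10 vehicle peaks met an ICI peak and 9 met a tamoxifen peak. In the mutant 4 of the 6 met an ICI peak and 5 a tamoxifen peak. The shares in the whole lists were 67.4%, 78.9%, 61.2% and 62.0% in the same order. Conversely, 32.0% of wild-type ICI peaks in the windows (14.9 to 53.5) overlapped a wild-type vehicle peak, against 9.44% of the whole list, and 18.8% of wild-type tamoxifen peaks did (8.95 to 32.6), against 7.85%. For the mutant these shares were 9.76% with ICI (2.72 to 23.1) and 14.7% with tamoxifen (4.95 to 31.1), against 6.71% and 8.53%. The wild-type shares thus stood above their lists by more than counting error, narrowly so with tamoxifen, and the mutant shares did not. The wild-type shares are not separate results, because the 8 vehicle sites met by wild-type ICI were all wild-type tamoxifen sites too. The genotypes' shares were not tested against each other.

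The ligands were given at the same dose and for the same time. In the wild type, fewer peaks were called around these genes with ICI than with tamoxifen, as in the whole lists. Wild-type ICI had 0.521 times as many peaks in the windows as wild-type tamoxifen (exact 95% interval 0.308 to 0.862), and each of the 3 windows had fewer peaks with ICI. Its interval includes the ratio of the whole lists, 0.709. In the mutant the ratio of ICI to tamoxifen was 1.21 (0.747 to 1.96) and that of the whole lists 1.25. Wild-type ICI peaks in the windows were nearly a subset of the wild-type tamoxifen peaks: 23 of 25 overlapped one (92.0%, 73.97 to 99.02), against 72.1% of the whole list. Of the wild-type tamoxifen peaks 47.9% overlapped a wild-type ICI peak (33.3 to 62.8), against 51.2%. Among the ligand lists, wild-type ICI alone called 0 of the 63 sites (0 to 5.69%), against 6.49% of all sites. Wild-type tamoxifen alone called 11 (17.5%, 9.05 to 29.1), against 9.67%. Mutant ICI alone called 6 (9.52%, 3.58 to 19.6), against 12.9%, and mutant tamoxifen alone 4 (6.35%, 1.76 to 15.5), against 5.48%. Sites missing only from wild-type ICI numbered 7 (11.1%, 4.59 to 21.6), against 11.7% of all sites. Those missing only from wild-type tamoxifen numbered 0 (0 to 5.69%), against 2.49%. Mutant ICI peaks overlapped mutant tamoxifen peaks at 65.9% (49.4 to 79.9), against 68.2% of the whole list, and in the other direction the share was 79.4% (62.1 to 91.3), against 85.6%.

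Between genotypes, the wild type had 1.41 times the mutant number of tamoxifen peaks in the windows (0.891 to 2.26), against 1.02 for the whole lists. The ratio was 1.71 at Greb1 (0.852 to 3.58), 1.33 at Pgr and 1.09 at Igf1. For ICI the wild type had 0.610 times the mutant number (0.355 to 1.03), against 0.578. Neither ratio differed from that of the whole lists beyond counting error. With ICI, 84.0% of the wild-type peaks were shared with the mutant (63.9 to 95.5), against 72.8% of the whole list, and in the other direction the share was 51.2% (35.1 to 67.1), against 42.04%. With tamoxifen, 79.4% of the mutant peaks were shared with the wild type (62.1 to 91.3), against 65.4%, and the converse share was 56.2% (41.2 to 70.5), against 64.1%. At Greb1 10 of the 24 wild-type tamoxifen peaks overlapped a mutant one (41.7%, 22.1 to 63.4), an interval that leaves out the 64.1% of the whole list.

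By class, the 63 sites were close to the whole series except in a few respects. At least 1 ligand list called 61 of them, against 97.5% of all sites, and exactly 1 ligand list called 21 (33.3%, 22.0 to 46.3), against 34.6%. All 4 ligand lists called 19 (30.2%, 19.2 to 43.0), of which 8 (12.7%, 5.65 to 23.5) were also vehicle sites, against 4.59% of all sites, and 11 (17.5%, 9.05 to 29.1) were not, against 18.7%. Sites called by a tamoxifen list and no ICI list numbered 17 (27.0%, 16.6 to 39.7), against 16.3% of all sites, and those called by an ICI list and no tamoxifen list 7 (11.1%, 4.59 to 21.6), against 20.9%. The interval left out the value for all sites in the tamoxifen class and held it in the ICI class. Sites with a ligand list of each genotype numbered 35 (55.6%, 42.5 to 68.1), against 49.3%. The wild type alone had 14 (22.2%, 12.7 to 34.5), against 19.2%, and the mutant alone 12 (19.05%, 10.2 to 30.9), against 29.0%. Of the wild-type sites 11 were in tamoxifen only, and 9 of the 14 were at Greb1. Counted by list, the sites numbered 48 for wild-type tamoxifen (76.2%, 63.8 to 86.0), the only ligand list whose interval left out its value for all sites, 57.3%. Mutant ICI called 41 (65.1%, 52.0 to 76.7) against 70.3%, mutant tamoxifen 34 (54.0%, 40.9 to 66.6) against 56.1%, and wild-type ICI 25 (39.7%, 27.6 to 52.8) against 40.7%.

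**Figure D4:**
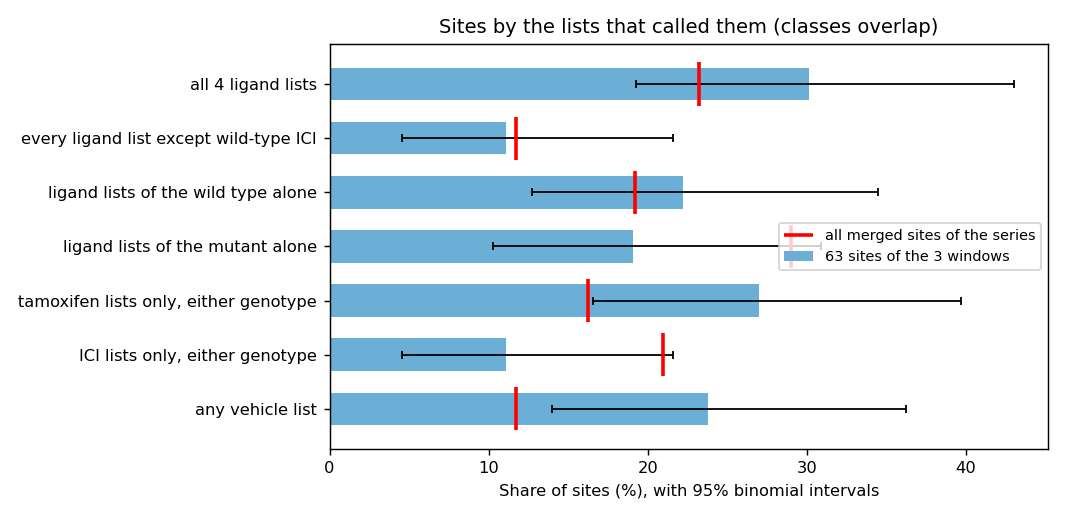
Share of the 63 sites that fall in each class of lists, as bars with exact 95% binomial intervals, with the share of all 65146 merged sites as red lines. Tamoxifen-only sites (27.0%) and vehicle sites (23.8%) lie above their red lines, and ICI-only sites (11.1%) lie below.

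Greb1 sites stood closer together than those of the other genes. The median distance between neighbouring midpoints was 4.39 kb at Greb1, 13.4 kb at Pgr and 10.5 kb at Igf1, against 11.9 kb over the genome. At Greb1, 53.3% of the distances were at most 5 kb, against 30.1% over the genome, and 6 of its 31 sites (19.4%) stood alone, against 49.3%. The largest Greb1 cluster ran over 18.5 kb from 16767230 to 16785715 and held 6 sites, more than 99.7% of the 45532 clusters in the genome. Wild-type tamoxifen called 5 of them, wild-type ICI 4, mutant ICI 3, wild-type vehicle 2, mutant tamoxifen 1 and mutant vehicle 0. A cluster of 4 sites, picked out after its values were seen, from 16854811 to 16861162 in the flank, had 4 sites for mutant ICI, 3 for each tamoxifen list, 1 for wild-type ICI and 0 for the vehicle lists. Igf1 had no cluster of more than 2 sites, and 11 of its 17 sites stood alone.

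Where lists shared a site, their peaks were nearly in register. Over the 40 sites with more than 1 list, the midpoints spanned a median of 18.5 bp, and 33 (82.5%) spanned at most 50 bp, against a median of 25.0 bp and 80.6% over the genome. Each deposited peak is 200 bp wide. The widest site was the Greb1 site at 16873306 to 16873761, where the midpoints spanned 256 bp. There, mutant tamoxifen and wild-type ICI peaks lay within 5 bp of each other, and the mutant vehicle, mutant ICI and wild-type tamoxifen peaks 193, 214 and 256 bp above the lowest. At Igf1, the site at 87311022 to 87311421 spanned 200 bp, with mutant vehicle lowest and the ligand midpoints 120 to 200 bp above it. In these sites, lists that count as sharing a site through merging do not all overlap each other.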

How the data were processed

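Each of the 6 libraries had 1 deposited peak list. Per the file contents, the authors deposited positions only (other values, such as heights or scores, are not in these lists), and every peak was 200 bp wide. The build is mm9, and the tools named in the submitters' processing notes are HOMER 4.10.3, Bowtie2 2.1.0, bedtools 2.24.0, Picard and SAMtools. The role of each tool, the peak threshold and any use of input were not given in the sources used here. Depth per library is unknown. Threshold and depth set how many peaks a list holds, so shares are set beside those of the whole lists.

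Peaks were assigned by midpoint, merged at 1 bp overlap and compared with Python 3.11.15, pandas 2.3.3 and scipy 1.17.1. All 30 pairwise overlaps and the merged count were checked against bedtools 2.31.1, with 0 differences. On simulated lists with known sharing, 0 shared peaks were miscounted. Intervals are exact 95% binomial or Poisson intervals and cover counting error only. Same-length windows were laid end to end over chromosomes 1 to 19 and X, which leaves out 67 peaks.

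Sites were named when called in 5 or 6 lists, in a vehicle list, or with both ligands of only 1 genotype; some others are named that were chosen after their values were seen. The members and lists were chosen with earlier results of these data known. A search for response elements in the sites needed an mm9 genome, not used here. Alternatives changed window edges, merging, overlap, the inner interval and cluster distance, and left out ligand lists.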

Additional observations from a re-analysis of the deposited data

Results flagged for a closer look

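At Greb1, the wild-type window held 12 ICI and 24 tamoxifen peaks, 12 fewer with ICI, and the mutant window 19 and 14, 5 more with ICI, a difference of 17 between the genotypes. At Pgr the wild-type window held 7 and 12, 5 fewer with ICI, and the mutant window 11 and 9, 2 more with ICI, a difference of 7. Both were noted because the single libraries of the genotypes moved in opposite directions. The differences were not tested for want of replicates, and the whole lists show the same reversal, with 0.709 wild-type ICI peaks for each wild-type tamoxifen peak and a mutant ratio of 1.25.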

How the results depend on the processing

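No paired analysis was possible because each group has 1 library and the labels carry no replicate numbers; for the same reason no replicate could be left out. Of 134 recomputed values for the comparisons, 124 stayed within counting error, 1 SD or 1.5 times of the reported value. These limits are wide for such small counts. Some settings could hardly move a value, as counting any overlap of a peak with the window left each density unchanged. Leaving out the wild-type tamoxifen list (chosen after seeing the data) took wild-type-only sites from 14 to 3, mutant-only sites from 12 to 25 and sites of both genotypes from 35 to 22. Leaving out mutant ICI (also chosen afterwards) took mutant-only sites to 6 and wild-type-only sites from 14 to 21, the latter counted as within 1.5 times. These changes follow in part from removing a list. Taken singly, the Pgr and Igf1 windows gave mutant vehicle shares of 0% and 23.5%, against 9.52%. With midpoints within 500 bp counted as shared, 100% of wild-type ICI peaks in the windows met a wild-type tamoxifen peak. This looser rule can only raise sharing, and the whole-list share at that distance is not given here. The largest Greb1 cluster held 2 sites when chained at 2 kb and 15 at the longest distance tried, where the largest Igf1 cluster held 5. Moving the edges of the inner interval by 10 kb either way left wild-type tamoxifen with 83.3% to 86.7% of the inner Greb1 sites and mutant tamoxifen with at most 3 of 15. The same shift moved inner Igf1 shares from 50.0% to between 57.1% and 100% for mutant ICI and from 0% to at most 14.3% for wild-type ICI, and inner Pgr shares of wild-type ICI from 42.9% to between 25.0% and 55.6%. With windows narrowed by 50 kb, Greb1 fell below Pgr in peaks per 100 kb for mutant tamoxifen (2.92 against 4.12) and mutant ICI (4.58 against 4.71), and with windows widened it fell below Igf1 (3.64 against 4.74 and 4.77 against 5.26). Unknown depth and the lack of heights limit every absence from a list.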
